A study of Homo sapiens with 6 samples.

Results

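Promoter peaks of the histone mark H3K27ac that were present in both libraries of the acute myeloid leukemia (AML) line Kasumi-1 and in neither library of the AML line MV4-11 numbered 2072. They were selected on the measured peak lists themselves. A peak of the Kasumi-1 NC list was a member if it overlapped a Kasumi-1 sh-ANP32B peak by at least 1 base, overlapped no MV4-11 peak, and reached into the promoter window, which extended 2500 bases either way from the start of a protein-coding gene. The members made up 2072 of the 9078 promoter peaks in the Kasumi-1 NC list (22.8%, 95% Wilson interval 21.97 to 23.7), of all 22724 peaks in that list, and of 93160 peaks in the 4 lists together. Their presence in one line and absence from the other was therefore what chose them and is given as a description.

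The study asked how knockdown of ANP32B, a nuclear protein of the ANP32 family of histone-binding acidic proteins, alters histone acetylation in AML cells. Of its 6 samples, 4 were H3K27ac CUT&Tag libraries with a peak list, 1 per group, and 2 IgG libraries, from either line, are not analysed here. The groups were Kasumi-1 NC, Kasumi-1 sh-ANP32B, MV4-11 NC and MV4-11 sh-ANP32B. NC cells carried a control hairpin according to the study's methods, although the labels call them untreated, and sh-ANP32B cells carried a lentiviral hairpin against ANP32B; both kinds were puromycin-selected lines, and which of the hairpins was used for these libraries is not stated in the labels. The replicates of each group had been merged before peaks were called, so every group is 1 list, no spread between replicates can be given and no test was possible. Every difference describes these 4 lists only, and depth is unknown because the lists hold no read counts.

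CUT&Tag uses an antibody to bring a transposase to the chromatin that carries a mark, and the fragments cut there are sequenced. H3K27ac, the acetylation of lysine 27 on histone H3, marks active promoters and enhancers. It is placed mainly by the acetyltransferases CBP and p300 and removed by histone deacetylases. Many promoters, above all those of widely used genes, lie in CpG islands, stretches rich in G, C and the dinucleotide CpG, while promoters of strongly tissue-restricted genes more often lack an island. Kasumi-1 is known for the RUNX1::RUNX1T1 fusion and MV4-11 for a KMT2A fusion and a FLT3 internal tandem duplication.

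The promoter sequences of 5 member genes show the range of base composition among the members. Each run is the 250 bases upstream of the start, 5′ to 3′ on the gene's strand, from RefSeq on GRCh38.p14, with every CpG in capitals. DHRS3 encodes a retinal reductase and had one of the widest member peaks. NOTCH2 encodes a Notch receptor, and TOP2A encodes the topoisomerase that untangles DNA in dividing cells. CD33 and ITGAM encode myeloid surface proteins. The DHRS3 promoter lies at chr1:12618211-12618460 on the minus strand and holds 26 CpG at a GC content of 65.2%. The NOTCH2 promoter, at chr1:120069663-120069912 on the minus strand, holds 29 CpG at 72.8% GC. The TOP2A promoter, at chr17:40417897-40418146 on the minus strand, holds 12 CpG at 53.2% GC. The CD33 promoter lies at chr19:51224830-51225079 on the plus strand and the ITGAM promoter at chr16:31259725-31259974 on the plus strand, and each holds only 2 CpG, at 58.8% and 53.2% GC.
DHRS3 promoter: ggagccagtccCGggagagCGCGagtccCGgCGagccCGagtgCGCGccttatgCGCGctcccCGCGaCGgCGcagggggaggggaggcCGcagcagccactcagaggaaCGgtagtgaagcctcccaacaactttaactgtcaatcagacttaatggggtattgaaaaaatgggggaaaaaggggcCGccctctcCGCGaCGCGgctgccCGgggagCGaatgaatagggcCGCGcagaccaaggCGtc
NOTCH2 promoter: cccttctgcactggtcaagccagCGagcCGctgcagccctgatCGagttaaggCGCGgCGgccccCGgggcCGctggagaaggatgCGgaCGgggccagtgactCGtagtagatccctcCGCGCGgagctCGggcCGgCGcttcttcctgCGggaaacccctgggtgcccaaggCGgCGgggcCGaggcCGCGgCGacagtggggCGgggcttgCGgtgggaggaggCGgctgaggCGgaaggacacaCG
TOP2A promoter: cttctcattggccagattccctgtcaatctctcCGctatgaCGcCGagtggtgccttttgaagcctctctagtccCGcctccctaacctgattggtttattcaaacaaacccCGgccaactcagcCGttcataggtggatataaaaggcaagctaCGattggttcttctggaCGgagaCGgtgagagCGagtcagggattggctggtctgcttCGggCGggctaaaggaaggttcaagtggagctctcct
CD33 promoter: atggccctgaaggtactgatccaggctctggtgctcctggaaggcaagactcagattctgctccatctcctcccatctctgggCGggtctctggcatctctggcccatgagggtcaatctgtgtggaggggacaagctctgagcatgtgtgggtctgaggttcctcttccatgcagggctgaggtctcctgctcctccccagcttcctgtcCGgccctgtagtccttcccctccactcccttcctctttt
ITGAM promoter: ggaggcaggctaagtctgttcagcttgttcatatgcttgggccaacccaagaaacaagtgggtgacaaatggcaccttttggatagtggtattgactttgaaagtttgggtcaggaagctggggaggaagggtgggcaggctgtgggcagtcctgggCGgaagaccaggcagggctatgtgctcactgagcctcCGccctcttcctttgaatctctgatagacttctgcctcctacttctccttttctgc
The capitals are dense in the DHRS3 and NOTCH2 runs and sparse in the CD33 and ITGAM runs. How common either form was among the members cannot be read from these 5 runs.

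Facts of the series bear on all that follows. The 4 lists held 22724 (Kasumi-1 NC), 23833 (Kasumi-1 sh-ANP32B), 24491 (MV4-11 NC) and 22112 (MV4-11 sh-ANP32B) peaks, with median widths of 1045, 980, 815 and 742 bases. The smallest peak was 357, 354, 289 and 275 bases wide in the same order, so the width limit of calling differed between the lists. The markers of the cell lines went against the Kasumi-1 label. Of 7 Kasumi-1 markers only CD34 had a promoter peak in the Kasumi-1 lists, and KIT, POU4F1, RUNX1T1, MPO, TRH and PRAME had no promoter peak in any of the 4 lists. HOXA9, a homeobox gene typical of leukemias with a KMT2A fusion, had promoter peaks covering 4335 and 4707 bases in the Kasumi-1 lists (NC, then sh-ANP32B) and 769 and 659 bases in the MV4-11 lists. The whole window of HOXA10 was under peaks in both Kasumi-1 lists, against 2648 and 1638 bases in the MV4-11 lists. LYZ, a myelomonocytic gene, had none in the Kasumi-1 lists and 683 and 324 bases in the MV4-11 lists. Kasumi-1 and MV4-11 therefore stand below for the libraries so labelled, and the part of these marker patterns in the results was not tested. The promoter of ANP32B itself was no member. It had 3447 (Kasumi-1 NC), 3432 (Kasumi-1 sh-ANP32B), 3433 (MV4-11 NC) and 2631 (MV4-11 sh-ANP32B) bases under peaks, and H3K27ac at its promoter does not check a hairpin that acts on the mRNA.

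The promoter peaks found only in Kasumi-1 far outnumbered their mirror image. In the reverse direction, 228 of 7189 MV4-11 NC promoter peaks were in both MV4-11 lists and in neither Kasumi-1 list (3.17%). Among all peaks found only in both Kasumi-1 lists, promoters and distal peaks together, 2072 of 5130 were at promoters (40.4%, 95% Wilson interval 39.1 to 41.7). Among those found only in both MV4-11 lists the count was 228 of 4522 (5.04%, 4.44 to 5.72). Promoters made up 39.9% of all Kasumi-1 NC peaks and 29.4% of all MV4-11 NC peaks. The Kasumi-1 specific set thus had the promoter share of its whole list, and the MV4-11 specific set had a share far below that of its own. Of the other Kasumi-1 NC promoter peaks, 4635 (51.1%) were common to all 4 lists, 1632 overlapped peaks of exactly 1 MV4-11 list, and 739 had no partner in the Kasumi-1 sh-ANP32B list.

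Members were narrower than the promoter peaks shared by both lines. In the Kasumi-1 NC list their width ran from 357 to 5706 bases with a median of 977 (quartiles 621.5 and 1421), and their overlapping peaks in the Kasumi-1 sh-ANP32B list had a median of 905.5. Promoter peaks common to all 4 lists had medians of 1757 and 1779 bases in the same lists. Promoter peaks found only in MV4-11 had a median of 656 bases in the MV4-11 NC list. The share of Kasumi-1 NC promoter peaks that were members was 38.4% in the narrowest quintile of widths (357 to 738 bases), 31.0%, 23.5% and 15.2% in the next ones, and 6.05% in the widest (above 2274 bases). A wide peak has more bases at which an MV4-11 peak can overlap it, so width and membership are linked by the rule.

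**Figure D1:**
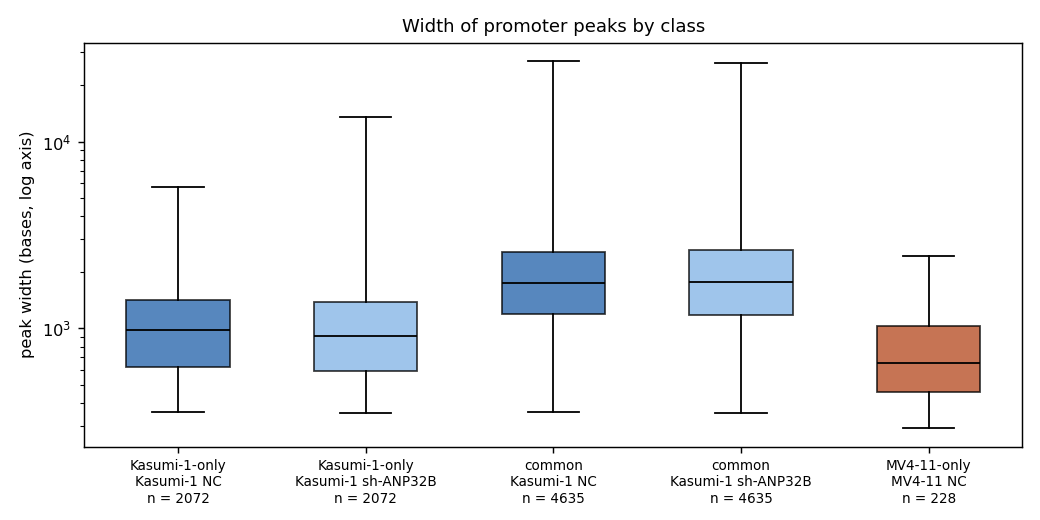
Widths of promoter peaks in bases on a log axis, by group of peaks and library. Each box spans the quartiles with the median as a line and whiskers to the lowest and highest values, and the members' median is 977 bases in Kasumi-1 NC against 1757 for promoter peaks common to all 4 libraries.

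In base composition the members looked like promoter peaks in general. Their median GC content was 61.9%, against 60.7% for peaks common to all 4 lists and 61.6% for all Kasumi-1 NC promoter peaks. The median CpG observed over expected, the number of CpG relative to that given by the C and G content alone, was 0.720 for members and 0.714 for common peaks. Members that were CpG-rich, with a GC content of at least 50% and a ratio of at least 0.6, numbered 1471 of 2072 (71.0%, 95% Wilson interval 69.0 to 72.9), near the 72.0% of all Kasumi-1 NC promoter peaks. The promoter peaks found only in MV4-11 were of another kind. Their median GC content was 42.6%, their ratio 0.210, and 25 of 228 were CpG-rich (11.0%).

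The difference between the mirror sets followed GC content in one line and hardly in the other. From the lowest to the highest GC quintile, members made up 24.0%, 21.05%, 20.3%, 23.3% and 25.5% of Kasumi-1 NC promoter peaks. The MV4-11 specific peaks made up 13.1% of MV4-11 NC promoter peaks in the lowest quintile and 0.765%, 0.905%, 0.487% and 0.556% in the others. MV4-11 specific promoter peaks were thus concentrated in the GC-poor quintile, while GC-poor and GC-rich promoters alike held members. The part of GC-dependent recovery of fragments in either library was not tested.

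**Figure D2:**
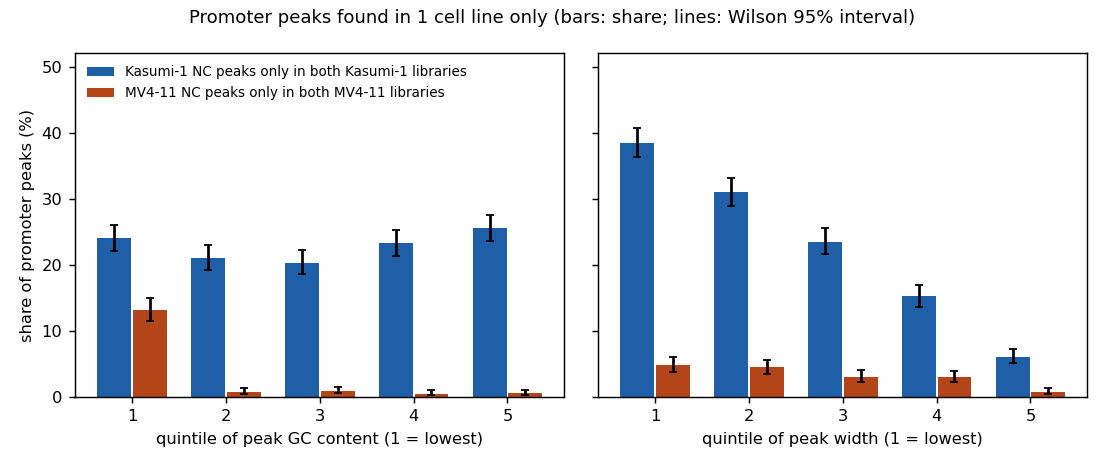
Share of promoter peaks (percent, with 95% Wilson intervals) found only in both Kasumi-1 libraries (of Kasumi-1 NC promoter peaks) or only in both MV4-11 libraries (of MV4-11 NC promoter peaks), by quintile of GC content and of width. The Kasumi-1 share stays between 20.3% and 25.5% across GC quintiles, and the MV4-11 share is 13.1% in the lowest and under 1% in the others.

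Most members covered the start of a gene. The start lay under the peak for 1433 of 2072 members (69.2%, 95% Wilson interval 67.1 to 71.1), against 87.6% of common peaks and 26.3% of MV4-11 specific ones. Members that spanned a start were wide, with a median of 1169 bases, and those that did not had a median of 591. Of the 639 members beside a start, 425 lay downstream of it and 214 upstream. One gene's window was touched by 1748 members, 2 windows by 294, and 3 or more by 30, as happens at divergent gene pairs.

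The members lay in the promoter windows of 2341 of 19970 protein-coding genes (11.7%). For 1903 of these genes (81.3%, 95% Wilson interval 79.7 to 82.8) the window held no MV4-11 peak at all. Another 303 had peaks of both MV4-11 lists elsewhere in the window, 98 of MV4-11 NC alone, and 37 of MV4-11 sh-ANP32B alone. At all genes but the 1903 the member peak thus sat beside an MV4-11 peak of the same promoter. The distance from a member to the nearest MV4-11 peak had a median of 19154.5 bases, and 233 members (11.2%) had one within 1000 bases. Of the 19970 protein-coding genes, 9541 had a Kasumi-1 NC peak in the window, and a gene without one could have no member. The 11.7% therefore depends on how many genes had a Kasumi-1 peak at all.

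The nearest and farthest members show what the rule admits. The peak of FCGR2A, which encodes an IgG receptor of myeloid cells, lay 1 base from an MV4-11 peak, that of OTUD6B, a deubiquitinase gene, 6 bases, and that of LIN54, a gene for a subunit of the DREAM complex, 8 bases. At the other end, APOOL, a gene for a protein of the mitochondrial inner membrane, was 2464445 bases from any MV4-11 peak. ZWINT, a kinetochore gene, was 1905684 bases away, and GALNT3, a gene for an enzyme of mucin-type glycosylation, 1697106 bases. Just outside the rule, the CSF2RA peak shared 1 base with an MV4-11 peak and the CCL3L3 peak 5 bases. At the Kasumi-1 edge, BCORL1 and NAPRT were members with 4 and 42 bases shared between the Kasumi-1 lists, while SLC5A5 and DYM had gaps of 56 and 206 bases. At the window edge, RTN3 and RPL27 were members with 1 and 4 bases inside it, and TSPO and MARK3 missed it by 1 and 6 bases.

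Around the starts of the member genes the lines separated as the rule requires. At the offset with the most cover, 87.3% of member genes were under a Kasumi-1 NC peak and 10.7% under an MV4-11 NC peak, both 100 bases downstream of the start. In the sh-ANP32B lists the maxima were 74.8% and 8.24%, both 200 bases downstream. At the start itself the shares were 82.0% (Kasumi-1 NC), 67.5% (Kasumi-1 sh-ANP32B), 9.57% (MV4-11 NC) and 7.09% (MV4-11 sh-ANP32B). Members were taken from the Kasumi-1 NC list and had only to touch a sh-ANP32B peak, so the choice itself favours more cover in NC. For genes with a peak common to all 4 lists the maxima were 93.7%, 88.3%, 81.9% and 71.7% in the order NC and sh-ANP32B of Kasumi-1, then of MV4-11.

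**Figure D3:**
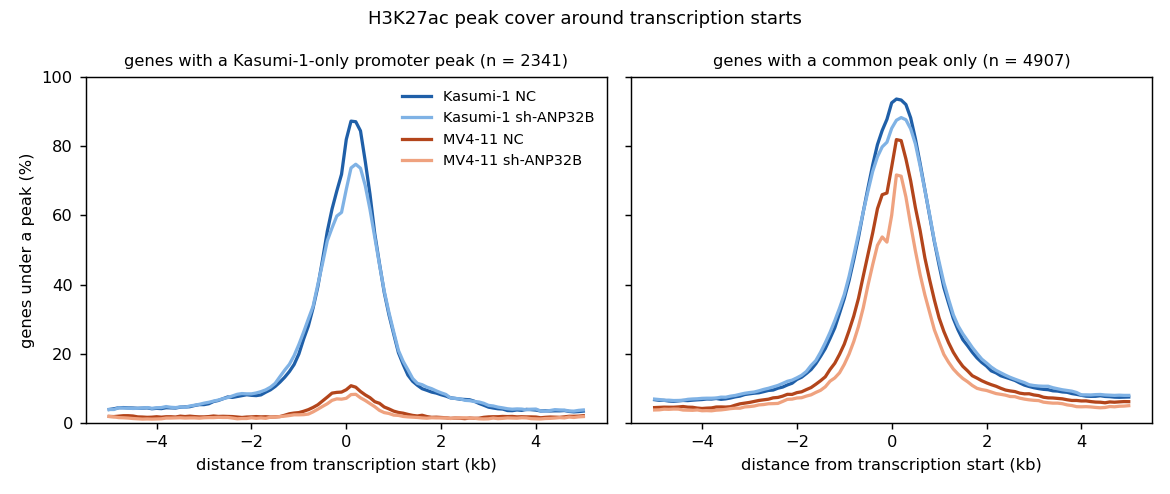
Share of genes (percent) with each position under a peak, by distance from the start in bases, for genes with a member peak and for genes with a peak common to all 4 libraries. Member genes reach 87.3% with the control hairpin and 74.8% with sh-ANP32B in Kasumi-1, and at most 10.7% in either MV4-11 library.

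After ANP32B knockdown the members as a whole were about as often narrower as wider, but the GC-rich ones were mostly narrower. The widths could be compared for 1905 members that had a 1-to-1 partner in the Kasumi-1 sh-ANP32B list; 74 more overlapped several sh-ANP32B peaks and 93 shared 1 with another NC peak. Of the 1905, 996 were narrower in sh-ANP32B (52.3%, 95% Wilson interval 50.04 to 54.5) and 899 were wider. The median difference was -8 bases, and the median log2 ratio of sh-ANP32B over NC width was -0.01 (quartiles -0.31 and 0.16). Peaks common to all 4 lists were narrower in 42.6% of 4234 pairs, with a median difference of 17 bases. Distal peaks found only in Kasumi-1 were narrower in 38.8% of 2826 pairs, with a median difference of 31.5 bases. Promoter peaks found only in both MV4-11 lists were narrower in MV4-11 sh-ANP32B in 58.8% of 216 pairs (52.1 to 65.2), with a median difference of -28 bases. The share for members thus lay above those of the common and distal peaks and below that of the mirror set, whose interval overlapped theirs. It was under 50% with 3 other ways of choosing members or starts (48.3% where 50% of each Kasumi-1 peak had to be shared, 49.7% with all transcript starts and 46.8% with the widest peaks only). Such intervals hold counting error alone and say nothing of variation between cultures.

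Large width ratios were more frequent among members than over all Kasumi-1 promoter peaks, and more frequent still in the mirror set. A sh-ANP32B peak narrower by at least 1.5-fold was found for 300 of the 1905 members (15.7%), where the share over all 7644 matched Kasumi-1 promoter peaks was 8.22%. A sh-ANP32B peak wider by at least 1.5-fold was found for 101 members (5.30%), against 3.14% over all. The common peaks had 4.13% and 1.91%, and the promoter peaks found only in MV4-11 had 18.5% and 12.5%. Members and MV4-11 specific peaks were also narrower than the common peaks to begin with. The members were chosen from the NC list, and when they were taken from the sh-ANP32B list instead, 53.2% of 1928 pairs were narrower in sh-ANP32B.

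The share of members that were narrower was higher in each successive GC quintile. From the lowest GC quintile of members (42.9% to 55.9%) to the highest (67.2% to 79.6%), the sh-ANP32B peak was narrower in 34.1%, 42.4%, 50%, 58.7% and 75.3% of pairs. The median difference went from 31 bases in the lowest quintile through 18, -0.5 and -35 bases to -233 in the highest. The share narrower by at least 1.5-fold was 4.40% in the lowest and 40% in the highest quintile. Common peaks of the same GC ranges were narrower in 36.2%, 39.2%, 40.9%, 45.7% and 62.1% of pairs, with a median difference of -58 bases and 17.4% narrower by at least 1.5-fold in the highest. The 95% Wilson intervals of members and common peaks overlapped in the lowest quintile (29.4 to 39.1 and 33.0 to 39.5) and not in the highest (70.8 to 79.4 and 57.4 to 66.7). Among members taken from the sh-ANP32B list, the top GC quintile of their own peaks was narrower in 302 of 392 pairs (77.0%, 95% Wilson interval 72.6 to 80.9). Whether this came from the knockdown or from a difference between the libraries in the recovery of GC-rich fragments cannot be told apart with 1 library per group.

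Within the members, those wide in NC stood out further. Of the 910 pairs with an NC peak of at least 1000 bases, 61.4% were narrower in sh-ANP32B with a median difference of -72 bases, and of the 995 pairs with a narrower NC peak 43.9%, with a median of 15 bases. The common peaks of at least 1000 bases were narrower in 43.7% of pairs. In the top GC quintile with an NC peak of at least 1000 bases, 179 of 208 members were narrower (86.1%, 95% Wilson interval 80.7 to 90.1), with a median difference of -494.5 bases. The common counterpart had 213 of 336 (63.4%) and -58 bases. This split uses the NC width itself, which favours a narrower partner in both sets.

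**Figure D4:**
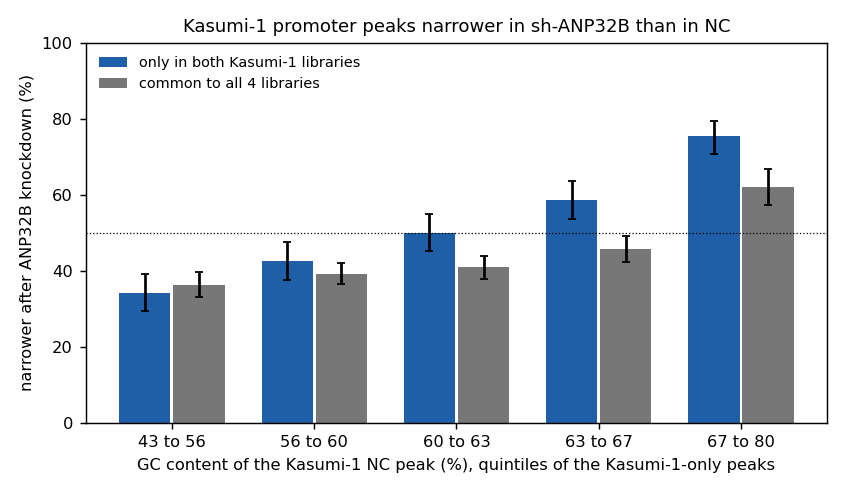
Share of matched peaks (percent) narrower in Kasumi-1 sh-ANP32B than in Kasumi-1 NC, by GC content of the NC peak in quintiles of the members, for members (blue) and promoter peaks common to all 4 libraries (grey). Lines are 95% Wilson intervals and the dotted line marks 50%. The share of members narrower in sh-ANP32B goes from 34.1% in the lowest to 75.3% in the highest GC quintile, and that of common peaks at the same GC from 36.2% to 62.1%.

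Members were next ranked by the log2 ratio of their widths, among pairs in which the wider peak had at least 1000 bases. APLN, the gene of the peptide apelin, had a peak 1870 bases wide in the NC list of Kasumi-1 and 356 wide in its sh-ANP32B list, a log2 ratio of -2.39. The peak of OTUD1, a deubiquitinase gene, was 1852 and 414 bases wide (-2.16), and that of STIM2, a calcium sensor gene of the endoplasmic reticulum, 1713 and 414 (-2.05). The peak of JMY, a gene for an actin-nucleating protein, was 1543 and 382 bases wide (-2.01). APLN, OTUD1, STIM2 and JMY had 0 bases under MV4-11 peaks in their windows. On the other side, GTSF1L had 386 and 1262 bases (1.71), ITM2C, a gene for a membrane protein of the BRI family, 367 and 1069 (1.54), SECTM1, a gene for a secreted and membrane protein of myeloid cells, 436 and 1230 (1.496), and MRPS31, a mitochondrial ribosomal protein gene, 461 and 1257 (1.45). Of these, GTSF1L also had 1507 and 366 bases under peaks of MV4-11 NC and MV4-11 sh-ANP32B in its window, and ITM2C, SECTM1 and MRPS31 had none.

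The widest members were ranked by the narrower of their Kasumi-1 NC and sh-ANP32B peaks, which favours peaks wide in both lists. TRAF4, an adaptor of tumor necrosis factor receptor signalling, had a peak of 5706 bases in NC (chr17:28740835-28746540) and 5555 in sh-ANP32B, and the nearest MV4-11 peak was 14260 bases away. Its neighbours TLCD1 and NEK8 shared a member of 3833 and 3927 bases. CIITA, the master regulator of MHC class II genes, had 4236 and 4395 bases (chr16:10877166-10881401), with the nearest MV4-11 peak 3877 bases away. DHRS3, whose CpG-dense promoter is printed above, had 3704 and 3862 bases, and the nearest MV4-11 peak was 269797 bases away. SOX12, a SOX transcription factor gene, had 4394 and 4110 bases, and FOXF1, a forkhead factor gene known from mesenchyme, 3765 and 3693. The other members of this kind were those of ABHD15 with TP53I13 (4141 and 4891), NUDT8 (3912 and 4216), ADAM15 (3953 and 3608), RNASE4 (3494 and 3493), CNN2 (4073 and 3465) and ROGDI (3619 and 4445, not 1 to 1). None of these 12 windows held a base under an MV4-11 peak.

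Among receptors and surface antigens of blood cells, 6 of 30 genes had a member, 20% beside 11.7% of all protein-coding genes. Among genes with a Kasumi-1 NC peak in the window, 6 of 17 had a member, beside 2341 of 9541 over all protein-coding genes. CD33, a sialic acid-binding antigen of myeloid cells, had promoter peaks that covered 1464 bases in the NC list of Kasumi-1, 1411 in its sh-ANP32B list, and 0 in both MV4-11 lists. ITGAM, which encodes the integrin CD11b, had 885, 870, 0 and 0 in the order Kasumi-1 NC, Kasumi-1 sh-ANP32B, MV4-11 NC, MV4-11 sh-ANP32B. CD33 and ITGAM thus had a peak in each Kasumi-1 list and none in MV4-11, and theirs are the CpG-poor promoters printed above. IL3RA, the interleukin-3 receptor alpha chain, had 1867, 1414, 0 and 0 in the same order, and is uncertain because it lies in the pseudoautosomal region, whose reads are shared with Y. FLT3, a receptor tyrosine kinase of progenitors, had 2028, 2008, 299 and 0. Its member peak was 963 bases wide in both Kasumi-1 lists and 484 bases from an MV4-11 peak, so the FLT3 promoter was not unmarked in MV4-11 NC. FCGR2A had 1241, 1297, 425 and 0. CD34, a progenitor antigen, had a member only at the edge of its window, with 180 and 132 bases in the Kasumi-1 lists and 0 in the MV4-11 lists.

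Among 40 cell cycle genes, 8 had a member (20%, beside 11.7% of all protein-coding genes). A member needs a Kasumi-1 NC peak, which 36 of the 40 genes had, against 9541 of all 19970. Among genes with such a peak, 8 of 36 had a member, beside 2341 of 9541. Of the 8 genes, 6 had no MV4-11 peak in the window, as did 81.3% of all member genes. The S and G2 phase gene TOP2A had 3252 and 3275 bases in the Kasumi-1 lists (NC, then sh-ANP32B) and 0 in both MV4-11 lists. CCNE2, which encodes cyclin E2 of the G1 to S transition, had 2521, 2035, 0 and 0 in the order given above, and CDC25A, a phosphatase that activates CDK complexes, 1695, 1698, 0 and 0. CCND1, the gene of cyclin D1, had 1372, 1335, 0 and 0. Those 4 promoters had peaks in both Kasumi-1 lists and no called peak in either MV4-11 list. Because the lists hold no read counts, a missing peak does not show that the mark was absent. CDK2, the kinase partner of cyclin E, had 754, 789, 0 and 0, and CDKN2B, an inhibitor of CDK4 and CDK6, 485, 477, 0 and 0. CDK4 had 1306, 1122, 1012 and 957, and AURKB, the kinase of the chromosomal passenger complex, 1837, 1555, 466 and 0, so these had an MV4-11 peak in the same window. The AURKB member itself was 440 bases wide in Kasumi-1 NC and lay 2225 bases from the nearest MV4-11 peak. The CDK4 member lay 2289 bases from one. Most genes of the list had peaks in both lines, 36 of 40 in each Kasumi-1 list and 30 and 21 in MV4-11 NC and MV4-11 sh-ANP32B.

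**Figure D5:**
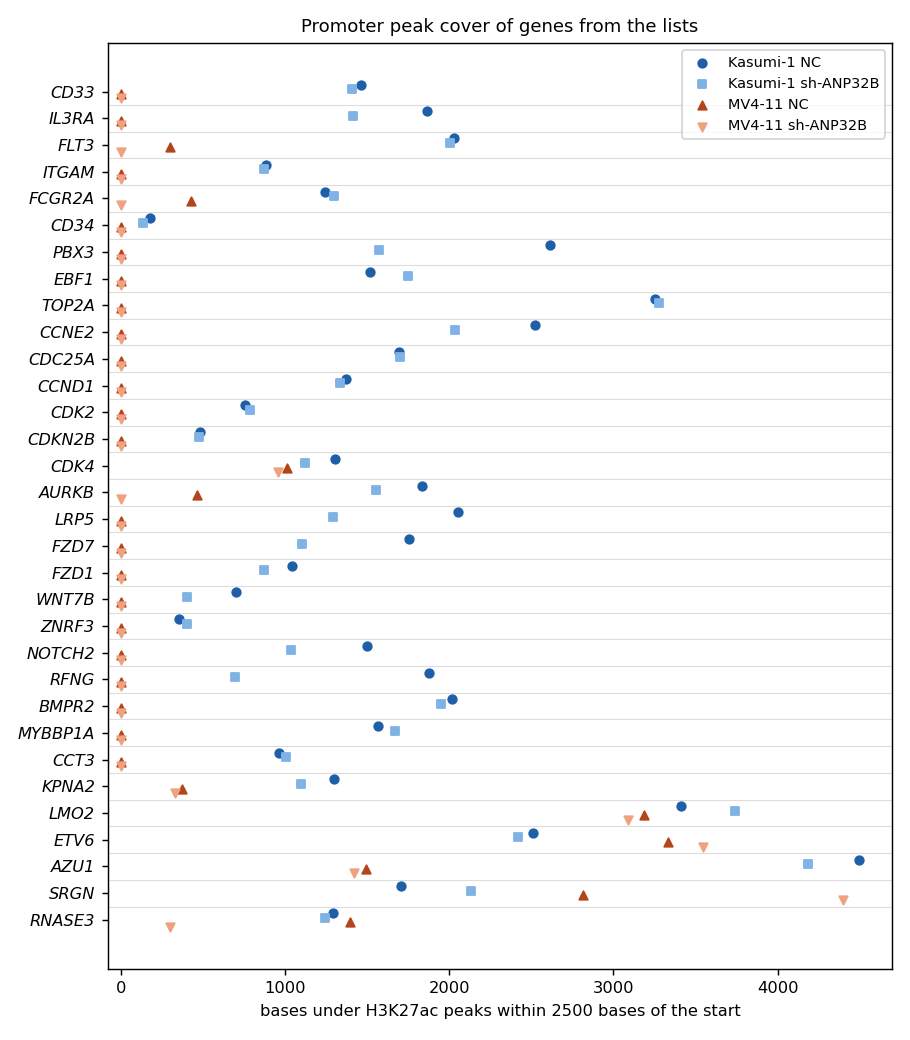
Bases under peaks within 2500 bases of the start, in each of the 4 libraries, for the list genes with a member peak that the text names, each symbol being 1 library. All genes shown hold bases in both Kasumi-1 libraries, and FLT3, FCGR2A, CDK4, AURKB, KPNA2, LMO2, ETV6, AZU1, SRGN and RNASE3 also hold bases in MV4-11 NC.

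Genes of developmental signalling had members at a share near or below that of all genes, counted whether or not a gene had a Kasumi-1 peak. Among genes with a Kasumi-1 NC peak in the window, members were found for 5 of 11 Wnt, 2 of 13 Notch and 1 of 18 TGF-beta and BMP genes. Over all protein-coding genes with such a peak, the count was 2341 of 9541. Of all 46 Wnt pathway genes 5 had a member (10.9%), none with an MV4-11 peak in its window. Among the receptors, LRP5, a Wnt coreceptor, had 2051, 1294, 0 and 0 bases in the order Kasumi-1 NC, Kasumi-1 sh-ANP32B, MV4-11 NC, MV4-11 sh-ANP32B. The frizzled receptor gene FZD7 had 1754, 1102, 0 and 0, and FZD1 had 1040, 871, 0 and 0. These 3 had fewer bases in sh-ANP32B than in NC. The ligand gene WNT7B had 699, 402, 0 and 0, and ZNRF3, a ubiquitin ligase that removes frizzled receptors, had 357, 401, 0 and 0. In the Notch pathway 2 of 26 genes had a member (7.69%). NOTCH2 had 1498, 1034, 0 and 0, and RFNG, a fringe glycosyltransferase gene that modifies Notch receptors, 1877, 694, 0 and 0. Of 35 TGF-beta and BMP pathway genes 1 did (2.86%), the type II receptor gene BMPR2 with 2015, 1953, 0 and 0.

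Among 55 targets of MYC, the transcription factor at the centre of the study, 4 had a member (7.27%, beside 11.7% of all protein-coding genes). Among genes with a Kasumi-1 NC peak in the window, 4 of 51 had a member, beside 2341 of 9541 over all protein-coding genes. MYBBP1A, a nucleolar protein gene, had 1565, 1667, 0 and 0 bases in the order used above, and CCT3, a chaperonin subunit gene, 961, 1005, 0 and 0. KPNA2, a nuclear import receptor gene, had 1301, 1096, 373 and 332, and CDK4 is given above. The KPNA2 member itself was 434 bases wide in Kasumi-1 NC and lay 1780 bases from the nearest MV4-11 peak. Promoters of MYC targets were mostly shared, with a peak for 51 and 52 of 55 genes in the Kasumi-1 lists (NC, then sh-ANP32B) and for 50 and 39 in those of MV4-11.

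Blood transcription factors with a member had peaks in both lines. Of 24 factors 2 had one (8.33%, beside 11.7% of all genes), and 15 had a Kasumi-1 NC peak in the window. LMO2, a bridging factor of the TAL1 complex, had 3415, 3740, 3189 and 3090 bases in the same order, and ETV6, an ETS repressor gene, 2510, 2421, 3330 and 3547. Of 18 granule protein genes 9 had a Kasumi-1 NC peak in the window and 3 had a member (16.7%). The 3 were AZU1 (4498, 4183, 1491 and 1423), SRGN, the gene of the granule proteoglycan serglycin (1706, 2135, 2814 and 4397), and RNASE3, the gene of an eosinophil granule ribonuclease (1294, 1246, 1393 and 297). In these 5 genes the member was an additional peak of Kasumi-1 in a promoter that MV4-11 also had marked. PBX3, a partner of HOX proteins counted among the MV4-11 markers, had 2616, 1570, 0 and 0. Markers of other cell types were mostly without members. EBF1, a transcription factor gene of early B cells, had one (1515, 1747, 0 and 0), and 0 of 7 T cell, 0 of 8 erythroid and megakaryocyte, 0 of 6 monocyte and 0 of 8 epithelial or fibroblast markers did. No gene can have a member without a Kasumi-1 NC peak in its window. Such a peak was present for 0 T cell, 1 erythroid and megakaryocyte, 2 monocyte and 0 epithelial or fibroblast markers. For T cell and epithelial or fibroblast markers the count of 0 was therefore fixed by the rule.

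Member promoters often held a GC-box and seldom a TATA box. Motifs were searched as exact letters on both strands from 250 bases before to 50 after the start, at genes whose start lay under a member, 1167 of 1433 of which were in the RefSeq promoter table. The GC-box GGGCGG was in 74.98% of them, 70.5% of promoters of common peaks, 28.3% of the 46 promoters of MV4-11 specific peaks, and 59.2% of all 15321 promoters. The TATA box TATAAA was in 29 of the 1167 (2.49%, 95% Wilson interval 1.74 to 3.55), 5.82% of common, 23.9% of MV4-11 specific and 9.63% of all promoters. The ETS letters CCGGAAGT were in 10.1% of member, 9.62% of common and 6.32% of all promoters, and the NRF1 letters GCATGCGC in 6.60%, 6.20% and 4.24%. The RUNX letters TGTGGT were in 10.03% of member promoters, 8.57% of common ones and 10.9% of all. In the same order of member, common and all promoters, the GATA letters AGATAA were in 3.86%, 4.52% and 7.44%, and the AP-1 letters TGANTCA in 3.77%, 4.68% and 5.74%. The C/EBP letters TTGCNNAA were in 6.94%, 6.68% and 8.37%, and the E-box CACGTG in 9.60%, 11.5% and 8.88%. A match is a description of these letters, not of binding.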

How the data were processed

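The authors aligned H3K27ac CUT&Tag reads to hg38 with Bowtie2 (2.2.5 in the methods, 2.4.4 in the submitters' processing notes), removed duplicates with Picard, merged replicates with samtools 1.15.1 and called peaks with MACS2 2.2.7 (MACS3 3.0 in the notes) at a q-value of 0.01. Whether IgG served as the control is not given in the sources used here. The deposited lists hold the position of every peak and its length in bases, with no count, height or q-value, so the only measured value is peak width.

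Peaks on chromosomes 1 to 22 and X were used, and 3672 peaks on other sequences and Y were left out. Of the 4 lists, 0 peaks reached past the end of a chromosome. Starts were those of the canonical transcripts of 19970 protein-coding genes in GENCODE 44. Promoter sequences came from the RefSeq table, in which 15321 genes were matched by symbol, and 33 of the 33 sequences checked stood unchanged in hg38. Peaks were matched 1 to 1 where each was the other's only overlapping partner. Analyses used python 3.11.15, numpy 2.4.6, scipy 1.17.1 and matplotlib 3.10.9, and the selection was tested on simulated data. Shares have 95% Wilson intervals, which cover counting error only.

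The members, gene lists and motifs were chosen with earlier results of these data known. Genes were named by rule: the 12 widest members, up to 6 member genes per list by width and all of the cell line markers, the 4 members with the greatest log2 width ratio in each direction (matched 1 to 1, wider peak of at least 1000 bases), the 3 nearest to and 3 farthest from MV4-11 peaks, the 2 longest runs of neighbouring genes, 2 peaks on each side of each edge of the rule, and ANP32B. CDKN2B and AURKB and the sequences printed were chosen after their values were seen. The design had assumed values per peak, and width took their place. Some genes of the lists are not reported here. Alternatives varied the window, the minimum width, the overlap rules, the base list, the MV4-11 list used and the starts.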

Additional observations from a re-analysis of the deposited data

How the results depend on the processing

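The number of members (2072), their share of promoter peaks (22.8%), median width (977 bases), median CpG ratio (0.720), share narrower in sh-ANP32B (52.3%), share of member genes with no MV4-11 peak (81.3%) and count of list genes with a member (33) were recomputed under each alternative, and 41 values moved. A count was taken to move when it changed by over 1.5 times, and a share or median when it left the 95% interval of the value reported. The moved values are given in that order, and the cause was not tested. A window of 1000 bases gave a share of 21.6%, width 1054, ratio 0.745, 54.9% narrower and 96.0% without an MV4-11 peak. Kasumi-1 NC peaks of at least 1000 bases gave 1009 members, 16.5%, 1438, 0.740, 61.4%, 91.0% and 16 list genes. With no MV4-11 peak within 1000 bases the values were 20.3%, 1040, 0.735 and 90.9% without an MV4-11 peak. Where MV4-11 peaks had to cover 50% of a peak, there were 3981 members, 43.9%, 1360, 0.711, 43.3% without an MV4-11 peak and 83 list genes. Requiring 50% of each peak between the Kasumi-1 lists gave 19.0%, 48.3% narrower and 84.0%. Members taken from the sh-ANP32B list gave 24.9%, 817, 0.690 and 77.2%. A common minimum width of 357 and joining gap of 358 bases gave 25.8% and 83.4%, and removing by MV4-11 NC alone 25.4%. Starts of all transcripts gave 910, 0.680, 49.7% narrower and 61.3%. The 10000 widest peaks of each list, an alternative chosen after seeing the data, gave 33.2%, 1756.5, 0.709, 46.8% narrower and 96.2%.

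The share of members narrower in sh-ANP32B was thus under 50% with 50% of each Kasumi-1 peak shared (48.3%), all transcripts (49.7%) and the widest peaks (46.8%). The GC quintiles of members from the sh-ANP32B list were also added after seeing the data. No paired analysis was possible because each group had 1 peak list from merged replicates, and no replicate could be left out.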

Other observations

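Members also fell in runs of neighbouring genes. Of the 2341 genes with a member, 1128 lay in 477 runs of at least 2 neighbouring protein-coding genes that all had one. A single peak can make a run, since 294 members touched 2 windows and 30 touched 3 or more. Together these were 15.6% of members, and 17.0% of common peaks touched 2 or more windows. No count of runs for other promoter peaks is given, so clustering of members was not tested. The longest runs held 7 genes. On chromosome 14, CHMP4A, MDP1, NEDD8-MDP1, NEDD8, GMPR2, TINF2 and the gene ENSG00000254692 shared 3 member peaks, and 3 of the 7 also had an MV4-11 peak in the window. NEDD8 encodes a ubiquitin-like modifier and TINF2 a shelterin protein of telomeres. On chromosome 8, TONSL, ZFTRAF1, ENSG00000291316, TMEM276, KIFC2, FOXH1 and PPP1R16A shared 3 member peaks and had no MV4-11 peak. The TONSL peak was 2774 bases wide with the control hairpin and 2607 with sh-ANP32B in Kasumi-1, the middle peak 4649 and 2462, and the PPP1R16A peak 2415 and 2739. By chromosome, the member share of Kasumi-1 NC promoter peaks was highest on chromosome 14 (90 of 292, 30.8%, 95% Wilson interval 25.8 to 36.3) and X (28.4%), and lowest on 21 (6 of 94, 6.38%, 2.96 to 13.2) and 20 (15.2%). Copy number of the lines was not tested.

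Gene families differed in how many of their genes had a member, beside 11.7% of all genes. Zinc finger ZNF genes had one in 68 of 515 (13.2%), solute carrier genes in 32 of 385 (8.31%), histone genes in 9 of 88 (10.2%) and ribosomal protein genes in 9 of 86 (10.5%). Among genes with a Kasumi-1 NC peak in the window, 68 of 237 ZNF and 32 of 153 solute carrier genes had a member. For histone genes the count was 9 of 56 and for ribosomal protein genes 9 of 82. Over all protein-coding genes with such a peak it was 2341 of 9541. Protocadherins (0 of 65), olfactory receptors (0 of 416) and collagens (0 of 44) had none, and few of these genes had a peak in any list.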
